A study of Homo sapiens with 4 samples.

Results

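The 4 HOX gene clusters were examined in MCF10A, a non-tumour human breast epithelial cell line grown under normal conditions, with ChIP-seq lists of 53BP1 and of 2 phosphorylated forms of RNA polymerase II (Pol II). Pol II phosphorylated on serine 5 (S5p) is a mark of polymerase near the start of transcription, and Pol II phosphorylated on serine 2 (S2p) is a mark of elongating polymerase. 53BP1 is known for its role at DNA double-strand breaks and as a binding partner of p53. The members were the regions that overlapped, by 1 bp or more, windows set around HOXA (chromosome 7, 27130000 to 27250000), HOXB (chromosome 17, 46600000 to 46810000), HOXC (chromosome 12, 54330000 to 54450000) and HOXD (chromosome 2, 176950000 to 177060000), all in the hg19 build. They numbered 71 of 128734 regions in all: 13 of 11604 for 53BP1, 32 of 62530 for S5p and 26 of 54600 for S2p. No member was cut by a window edge. With 1 library for each antibody there was no replicate spread, and no difference was tested. Read depth was unknown, so an absent region is one that was not detected, and the antibodies cannot be compared by how many regions they gave or how wide these were. Intervals are exact 95% Clopper-Pearson intervals, which cover counting error only.

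HOX genes encode homeodomain transcription factors that give cells their position along the head-to-tail axis of the embryo. Within a cluster the genes stand in numerical order, and in development low-numbered genes are switched on earlier and nearer the head than high-numbered ones. Polycomb and Trithorax proteins are known for keeping HOX genes off or on in differentiated cells, and adult tissues are known to use some clusters, and parts of clusters, and not others. RefSeq (GRCh38.p14, used for names and order) lists 39 HOX genes: 11 in HOXA, 10 in HOXB, 9 in HOXC and 9 in HOXD. Along rising coordinates, HOXB runs from HOXB1 to HOXB13, while HOXC runs from HOXC13 towards HOXC4, HOXC5 and HOXC6 and HOXD from HOXD13 to HOXD1. No hg19 annotation or sequence was used, so no region was assigned to a gene and positions are given as coordinates or as distances from the lower edge of a window.

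The clusters also carry microRNA genes of the miR-10 and miR-196 families, which are shown because their hosts differed in Pol II regions. In gene order, MIR10B lies between HOXD8 and HOXD4, in the cluster without any region. MIR10A lies between HOXB4 and HOXB5, MIR196A1 between HOXB9 and HOXB13, MIR196A2 between HOXC10 and HOXC9, and MIR196B between HOXA9 and HOXA10. RefSeq mature sequences are given 5′ to 3′ with the seed, bases 2 to 8, in capitals. For the miR-10 pair the 3p arms are set side by side, since hsa-miR-10b-5p was not matched.
hsa-miR-10b-3p (HOXD): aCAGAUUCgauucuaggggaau
hsa-miR-10a-3p (HOXB): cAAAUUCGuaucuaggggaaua
hsa-miR-196a-5p (HOXB and HOXC): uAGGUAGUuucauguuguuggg
hsa-miR-196b-5p (HOXA): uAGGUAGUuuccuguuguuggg
The miR-196a and miR-196b seeds are the same, so 1 seed is encoded in HOXA, HOXB and HOXC, and not in HOXD.

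HOXD held no region of any list, whereas the other clusters held 37 (HOXA), 24 (HOXC) and 10 (HOXB). Its window lay in a stretch of 266 kb without regions, from 176867542 to 177133668 on chromosome 2. The nearest S5p regions lay 82.5 kb below and 73.7 kb above the window, the nearest S2p regions 82.7 and 74.0 kb away, and the nearest 53BP1 regions 82.8 and 73.9 kb. An empty window of this size was common: 15184 of 27533 consecutive windows of 110 kb over chromosomes 1 to 22 and X held no region of any list (55.1%). These windows were not matched for gene content to HOXD, which has 9 HOX genes. The same holds for the consecutive windows set beside the other clusters below. To show the DNA of this empty cluster, the 250 bases upstream of the RefSeq starts of the genes at its ends are given (GRCh38.p14, plus strand, 5′ to 3′, CG dinucleotides in capitals).
HOXD13: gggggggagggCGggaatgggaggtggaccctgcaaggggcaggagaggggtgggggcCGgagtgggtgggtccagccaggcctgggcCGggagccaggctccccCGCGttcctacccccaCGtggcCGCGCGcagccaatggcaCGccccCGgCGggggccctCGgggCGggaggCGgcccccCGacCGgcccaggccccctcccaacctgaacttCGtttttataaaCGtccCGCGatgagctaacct
HOXD1: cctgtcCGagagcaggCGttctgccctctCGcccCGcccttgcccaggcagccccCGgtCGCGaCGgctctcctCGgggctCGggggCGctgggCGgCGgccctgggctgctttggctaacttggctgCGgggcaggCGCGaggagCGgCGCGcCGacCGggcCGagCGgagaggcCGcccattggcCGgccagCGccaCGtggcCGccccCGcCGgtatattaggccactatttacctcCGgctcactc
HOXD13 has 21 CG dinucleotides in this stretch and HOXD1 has 31, against a median of 11 over 35116 upstream sequences of the same length. CG reads the same on both strands, and 93.9% of those sequences hold at least 1. At least 21 were present in 30.2% and at least 31 in 10.9% of them. The sequence table matched 20 of the 39 HOX genes, too few to compare the clusters by base composition.

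HOXA was the cluster most covered by Pol II. S5p regions covered 32.9% of its window and S2p regions 26.2%, against 4.49% and 5.399% of the span of the whole lists. Among 25239 consecutive windows of 120 kb, 862 (3.42%) were covered by S5p, and 1730 (6.85%) by S2p, at least as much. HOXC was covered to 10.7% by S5p and 10.8% by S2p. Windows of the same length were covered at least as much in 12.7% of cases by S5p and 15.9% by S2p. In HOXB the shares were 3.91% and 1.24%, both below those of the whole lists, although only 24.4% and 35.7% of windows of its length were covered at least as much. For 53BP1 the covered shares were 2.39% in HOXA, 2.40% in HOXC and 0.651% in HOXB, against 0.259% over the whole list. HOXA and HOXC thus held 6 of the 53BP1 regions each, in windows of the same length, although S5p covered 32.9% of the first and 10.7% of the second. The 53BP1 counts depended on weak regions: with the −log10 q-value limited to at least 5, HOXA and HOXC kept 3 each, while 71.8% of the whole list passed.

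**Figure D1:**
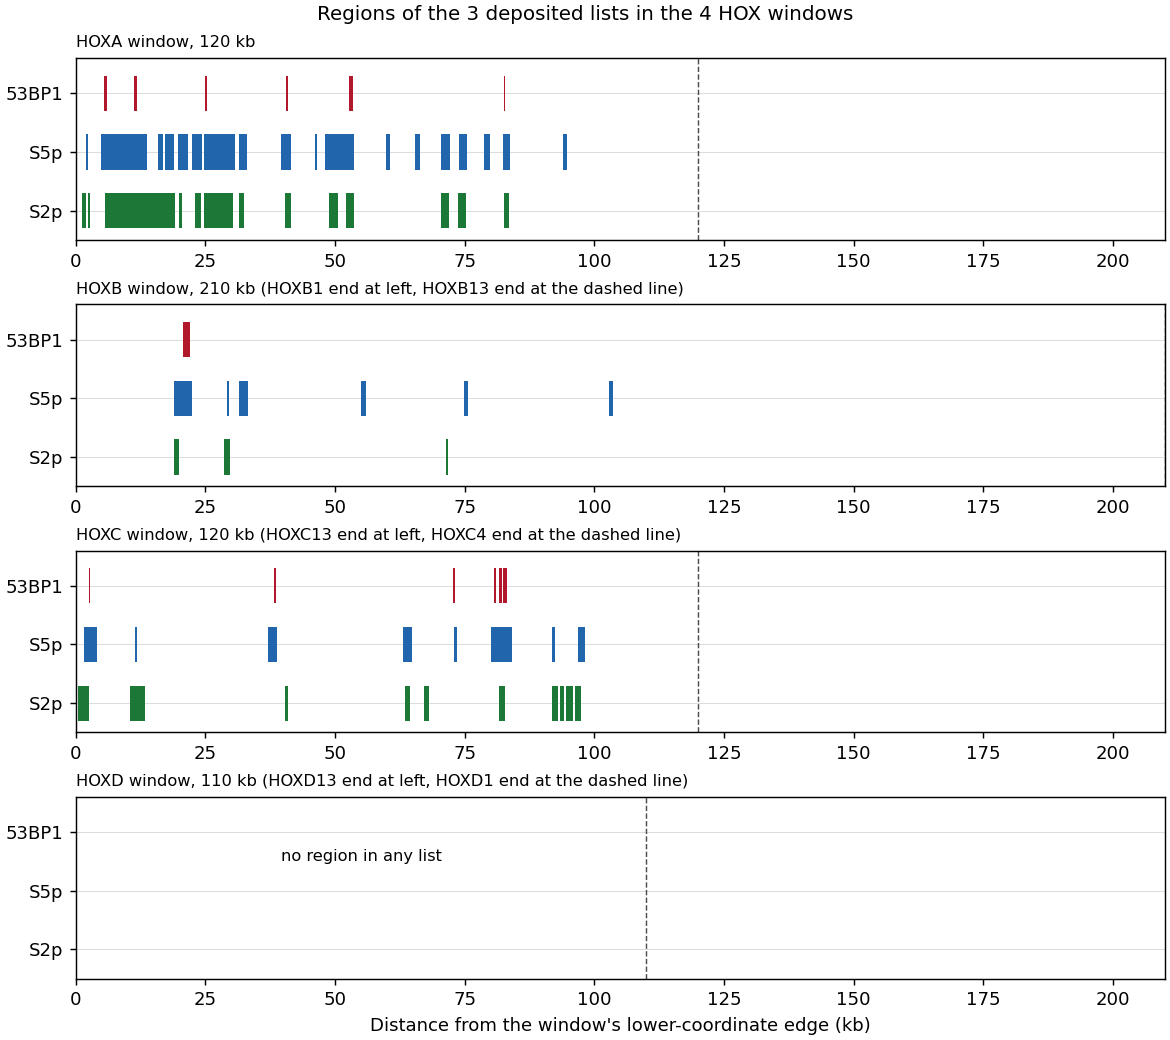
Regions of 53BP1, Pol II S5p and Pol II S2p in the 4 HOX windows, drawn to scale against the distance in kb from each window's lower-coordinate edge; the dashed line is the upper edge. HOXA holds 37 regions, HOXC 24, HOXB 10 and HOXD none.

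HOXA also held the S5p and S2p regions of largest fold enrichment (the deposited signal value, read as a ratio over background) in any HOX window. Its strongest S5p region was 8900 bp wide with a fold of 57.7, which ranked 1213th of 62530. Its strongest S2p region was 13577 bp wide with a fold of 26.8, ranked 1209th of 54600. Both were therefore near the 98th percentile of their own lists (98.1 and 97.8), and each was also the widest HOX region of its list. Only 1 other S2p region of HOXA was in the strongest quintile (20%) of its list by fold, at 27154654 to 27160294 (5641 bp, fold 8.59). It lay almost exactly over an S5p region at 27154664 to 27160629 (5966 bp, fold 16.6).

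Other S5p regions of HOXA were strong while their S2p partners ranked lower. The S5p region at 27178067 to 27183637 had a fold of 26.8 and the 91.2nd percentile, and the stronger of its 2 S2p partners had the 76.6th. At 27169524 to 27171492, S5p had a fold of 25.8 and the 90.8th percentile, with an S2p partner of fold 2.75 at the 20.1st. The S5p region at 27203815 to 27205470 had a fold of 15.8 (86.3rd percentile) with S2p at the 43.0th. In each of these the S5p percentile was the higher. The other strongest-quintile S5p regions of HOXA were at 27152490 to 27154283 (fold 13.2) and 27212378 to 27213698 (fold 9.82). Among the remaining 11 S5p regions of the cluster, folds ran from 2.07 to 8.33. The window's last 25.3 kb held no region of any list.

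HOXB had 6 S5p regions, all on the HOXB1 side of the window's midpoint, and the HOXB13 side held no region of any list. The strongest lay at 46618939 to 46622364 (3426 bp, fold 12.4, 84.1st percentile), and it was also the widest. It held the only 53BP1 region of the cluster, at its upper end, and an S2p region at its lower end (46618855 to 46619973, 1119 bp, fold 4.97), which was the strongest and widest S2p region of HOXB. The S5p regions at 46674940 to 46675724 (fold 9.92) and 46631404 to 46633296 (fold 9.14) were in the strongest quintile too, and neither met S2p or 53BP1. No S2p region of HOXB reached the strongest quintile, and all 3 were no wider than 1119 bp. From 46703669 to the end of the window, 106 kb towards HOXB13 were without regions.

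In HOXC, 4 of the 8 S5p regions were in the strongest quintile and they had folds close to one another. The strongest and widest was at 54410051 to 54414175 (4125 bp, fold 24.7, 90.4th percentile). Next came 54393082 to 54394775 (fold 23.2), 54331673 to 54334100 (fold 21.6) and 54367157 to 54368839 (fold 19.5). Their percentiles were 88.1 to 90.4, so all 4 were below the strongest S5p region of HOXA and near its next strongest. The 10 S2p regions of HOXC had a median percentile of 58.7, and 2 of them were in the strongest quintile. S2p met 3 of the 4 strong S5p regions, and not the one at 54367157. The S2p region of largest fold was at 54330421 to 54332640 (2220 bp, fold 7.59), beside the HOXC13 end, and the widest was at 54340500 to 54343258 (2759 bp, fold 3.79). The only other one of the strongest quintile was at 54421925 to 54423014 (fold 6.23), the first of a run of 4 S2p regions that ended at 54427494. That run covered 42.2% of the bin from 90 to 100 kb, against 18.1% for S5p, and S5p met it at its ends only. Because read depth was unknown, these 2 shares do not rank the antibodies. HOXC also lay nearest to other regions, with an S2p region 0.084 kb and an S5p region 0.793 kb below the window, which the rule left out.

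**Figure D2:**
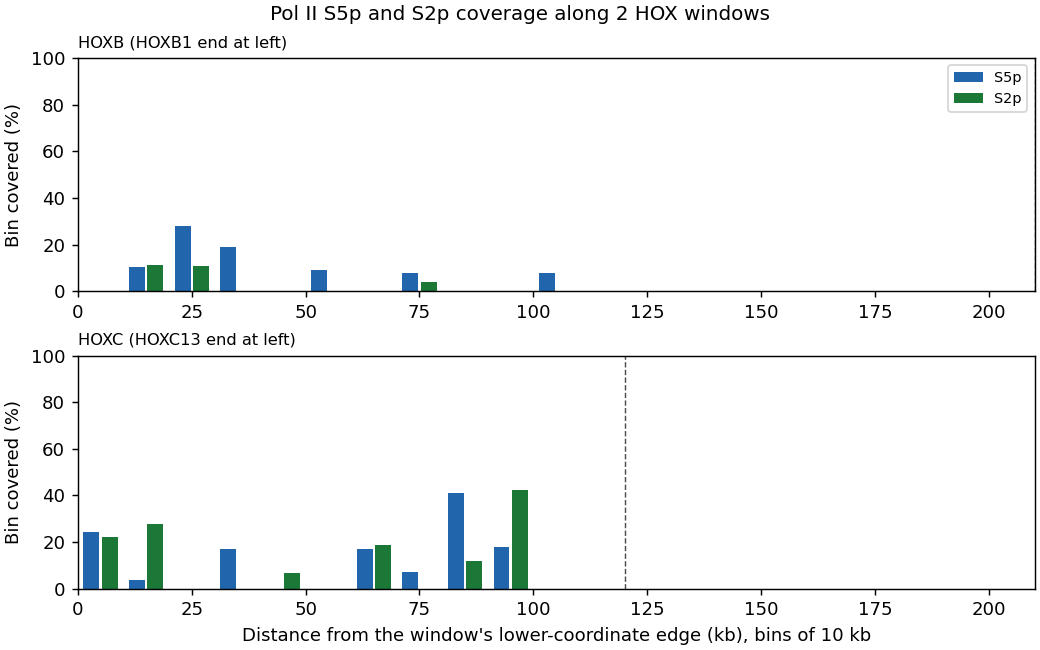
Percent of each 10 kb bin covered by S5p (blue) and S2p (green) regions along the HOXB and HOXC windows, against distance in kb from the lower-coordinate edge. In HOXC the bin from 90 to 100 kb is covered to 42.2% by S2p and 18.1% by S5p. In HOXB no bin beyond 110 kb is covered. Heights are not compared between S5p and S2p, since read depth was unknown.

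In the HOXB and HOXC windows, the side towards the low-numbered end of the cluster was the more covered by each list. For S5p the difference between the sides was 7.83 percentage points in HOXB and 6.42 in HOXC. For 53BP1 it was 1.303 and 2.295 points, and the HOXC value was 1.07 at the q-value limit and 0.245 with the upper 50% of the list by fold. For S2p it was 2.48 and 2.71 points, and the HOXC value turned to -0.718 with windows widened by 10 kb and to -0.770 with the upper 50% of each list by fold. The HOXC direction for S2p therefore depended on the window and on weak regions, and the HOXC size for 53BP1 on weak regions. The sides meet at the midpoint of the window, which does not divide the genes evenly. They are therefore not a set of low-numbered genes and a set of high-numbered genes, and no gene was placed on a side. The comparison was chosen after the regions had been seen.

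All 13 53BP1 members lay on S5p (interval 75.3 to 100%), where 97.6% of the whole 53BP1 list did. On S2p lay 9 of 13 (69.2%, 38.6 to 90.9), against 78.9% of the list. Both intervals include the share of the list, but regions of 1 library are not replicates, and no difference was tested. With both lists at the q-value limit, 3 of 7 lay on S2p (42.9%), against 79.5% of the list. No interval was computed for this share, which rests on 7 members only. Of the members, 12 (92.3%, 64.0 to 99.8) lay on an S5p region of the strongest quintile, against 92.5% of the list. By cluster, S2p was met by 6 of 6 in HOXA, 3 of 6 in HOXC and 0 of 1 in HOXB.

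None of the 13 was in the strongest quintile of the 53BP1 list, and their median fold of 5.63 was at the 43.7th percentile. The highest was in HOXC at 54368229 to 54368699 (fold 7.93, 72.5th percentile), on S5p without S2p. The HOXB region at 46620707 to 46622074 had a fold of 6.996 (62.9th percentile) and, at 1368 bp, was the widest of the 13. The others were at most 760 bp wide.

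In HOXA the strongest S5p region did not carry the strongest 53BP1 regions. The 2 53BP1 regions on its strongest S5p region had folds of 4.56 and 3.46, at the 26.1st and 5.14th percentiles of the 53BP1 list. The regions at 27182775 to 27183427 (fold 6.16) and 27170490 to 27170841 (fold 6.07) lay on S5p regions of less than 50% of that fold and had the highest 53BP1 folds of the cluster. At 27154872 to 27155343 the 53BP1 fold was 5.63 (S5p fold 16.6), and at 27212528 to 27212825 it was 4.25 (S5p fold 9.82). With the 2 regions on the strongest S5p region left out, the few remaining 53BP1 folds of HOXA stood in the order of the S5p folds. That omission was made after the values had been seen. It took out the members that broke the order, so nothing is concluded from it. Over all 13 members, Spearman's rho of the 53BP1 fold with the fold of its S5p region was -0.113, against 0.418 over 11321 regions of the list. The 13 points share S5p regions, since 3 lie on 1 and 2 on another, and come from the same pair of libraries.

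The strongest S5p region of HOXC held 3 53BP1 regions in a row. They were at 54410588 to 54411084 (fold 5.99), 54411601 to 54412218 (fold 6.62) and 54412469 to 54413228 (fold 3.68). The middle one had its summit 99 bp from the S5p summit, and the others 1027 and 643 bp. S2p covered all of the middle region and 34.6% of the last, and did not meet the first. Near the other end of HOXC a region at 54332454 to 54332731 had a fold of 3.79, and at 54402810 to 54403060 a fold of 4.15. The last was the only member on an S5p region outside the strongest quintile (S5p fold 5.94), and 73.3% of it was inside that region. More than 1 53BP1 region was present in 2 of the 10 S5p members that held any (20%, 2.52 to 55.6), against 12.6% in the list.

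The median distance from a 53BP1 summit to the summit of its S5p region was 162 bp over 13 members (5 to 5887 bp), against 78 bp over 11250 regions of the list. The smallest, 5 bp, was in the HOXA region at 27170490, and the largest was in HOXA too. To S2p summits the median over 9 was 303 bp (113 to 5299), against 177 bp over 8772 in the list. Of these 9, 7 were nearer to S5p, against 63% of the list.

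Seen from S5p, 10 of 32 members held 53BP1 (31.3%, 16.1 to 50.0), against 15.2% of the list. The interval lies just above the share of the list, but it covers counting error only. The members were stronger than the list, with a median fold of 8.04 against 3.76, and 14 of 32 were in the strongest quintile. Within that quintile, 9 of 14 held 53BP1 (64.3%, 35.1 to 87.2), against 71.4% in the list, and in the next quintile 1 of 12 did (8.33%, 0.211 to 38.5), against 3.71%. S5p members with 53BP1 had folds of 5.94 to 57.7 (median 20.5) and those without had 1.96 to 23.2 (median 6.55), so the ranges overlapped. The 5 strongest-quintile members without 53BP1 were those at 54393082 in HOXC (fold 23.2), 27203815 and 27152490 in HOXA (15.8 and 13.2) and 46674940 and 46631404 in HOXB (9.92 and 9.14). The first of these ranked above 5 of the 9 that held it. Of the S2p members, 7 of 26 held 53BP1 (26.9%, 11.6 to 47.8), against 13.9% of the list. This interval includes the share of the list, and the S2p share was not split by strength.

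**Figure D3:**
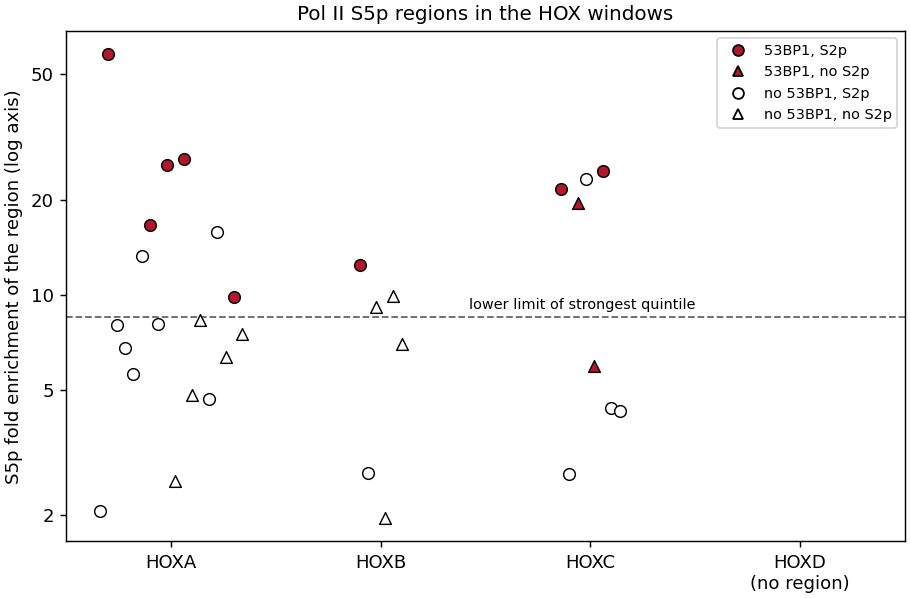
Fold enrichment (log axis) of the 32 S5p regions in the HOX windows, 1 point per region in coordinate order within a cluster; filled points held 53BP1, circles met S2p and triangles did not. Of the 14 points above the dashed limit of the strongest quintile, 9 are filled; below it, 1 of 18 is.

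S5p and S2p met in 21 of the 32 S5p members (65.6%, 46.8 to 81.4; list 60.2%) and in 20 of the 26 S2p members (76.9%, 56.4 to 91.0; list 54.9%). The S5p interval includes the share of its list, and the S2p interval lies just above that of its list. Whether either share differs from the list was not tested. Stretches with both marks made up 27.5 kb of HOXA, 4.71 kb of HOXC and 1.453 kb of HOXB. In HOXA these exceeded S5p without S2p (12.02 kb) and S2p without S5p (3.90 kb). In HOXC, by contrast, S5p without S2p (8.14 kb) and S2p without S5p (8.22 kb) each took more bases than both marks together. In HOXB, 6.77 kb had S5p without S2p, and 1.15 kb the reverse. Read depth, which was unknown, affects these base counts, so they are read between clusters and not between antibodies. Of the 6 S2p members without S5p, 4 were in HOXC, with folds of 2.57 to 4.03.

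Where both marks met, the S5p region was compared with its strongest S2p partner by rank, each within its own list. S5p ranked higher in 13 of 21 (61.9%, 38.4 to 81.9), against 31.2% of 37670 such S5p regions in the list. The interval includes an even split and lies above the share of the list, but it covers counting error only. Some pairs share a partner: the HOXA S5p regions at 27134910, 27145780 and 27147277 all met the S2p region at 27135562. The list was not matched for S5p strength, and the HOX S5p members had a median percentile of 79.2. The median difference in percentile was 10.2 points in the HOX windows and -16.6 points in the list. The difference ran from -40.4 points at 54341427 in HOXC to 70.8 points at 27169524 in HOXA, so members differed widely. Whether the HOX members differ from the list was not tested, since regions of 1 library are not replicates.

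**Figure D4:**
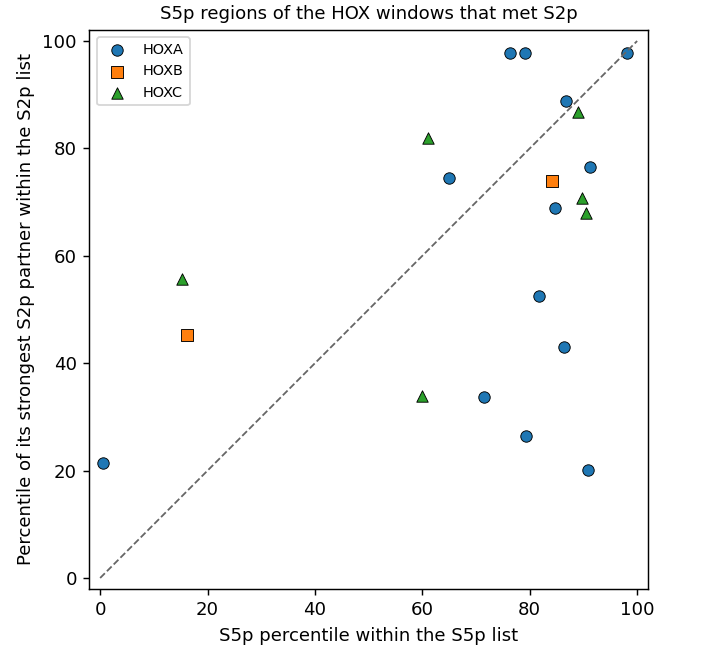
Percentile by fold of each of the 21 S5p regions that met S2p (x axis, within the S5p list) against that of its strongest S2p partner (y axis, within the S2p list); the dashed line marks equal percentiles. Below the line, with S5p ranked higher, lie 13 points.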

How the data were processed

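MCF10A cells were profiled by ChIP-seq with antibodies to 53BP1, S5p and S2p, and an input was made, with 1 library of each per the labels. The input was not analysed here. The values were lists of enriched regions deposited by the authors, with hg19 as the genome build per the submitters' processing notes. For the aligner, the caller and the control of the calls, nothing is given in the sources used here. For each region the deposited values were read as a fold enrichment (a ratio over background), a −log10 p-value, a −log10 q-value, a score and the offset of the summit. These meanings were taken from the format of the lists (narrowPeak). Folds only ranked regions within a list.

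Only chromosomes 1 to 22 and X were used. Percentiles, quintiles and background shares use the whole list. Overlap meant 1 bp or more. The overlap and coverage steps were tested on simulated data. The members, windows and lists were chosen with earlier results of these data known. The regions named were every 53BP1 member, the strongest and widest Pol II member of each cluster and every Pol II member of the strongest quintile; a few others named were chosen after their values were seen. Some results on HOXA, among them the positions of some of its regions and the comparison of its sides, are not reported here. Promoter and microRNA sequences are from RefSeq (GRCh38.p14). The tools were scipy 1.17.1, pandas 2.3.3, matplotlib 3.10.9 and numpy 2.4.6 under Python 3.11.15.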

Additional observations from a re-analysis of the deposited data

How the results depend on the processing

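The alternatives were a −log10 q-value of 5 or more, windows widened or narrowed by 10 kb, the upper 50% of each list by fold and, for overlaps, 50% of the region covered; the differences between the sides of a window were added after seeing the data. HOXD stayed without regions in all 24 of its alternative values, an outcome that was fixed in advance. Stricter lists and narrowed windows cannot add regions, and the nearest region lay 73.7 kb away, beyond the widening of 10 kb. At the q-value limit, 53BP1 counts fell to 3 in HOXA and 3 in HOXC, and S2p counts to 8 in HOXA and 1 in HOXB. In the upper 50% by fold, 53BP1 kept 2 regions in HOXA and 2 in HOXC, and S2p kept 7 in HOXA, 1 in HOXB and 6 in HOXC. With 50% of the S5p region required, 0 of 32 held 53BP1, which the narrow 53BP1 regions give by construction. Of 24 alternative differences between sides, 22 kept the side at the low-numbered end higher. Those of HOXB could not change sign. Its HOXB13 side held no region, and the nearest region above the window lay 98.1 kb away. Only the HOXC differences could turn. For S2p in HOXC the difference was -0.718 with widened windows, -0.770 in the upper 50%, 1.16 at the q-value limit and 7.70 with narrowed windows. For S5p in HOXC narrowing gave 12.6. For S2p in HOXB it was 1.07 under both stricter lists. For 53BP1 the q-value limit gave 1.07 in HOXC, and the upper 50% gave 0.245. Fewer regions lower the counts by construction; for the differences the cause was not tested. No paired analysis was possible because there is 1 library per antibody.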

Other observations

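The surroundings of the clusters differed as well. HOXA stood alone: the nearest region of any list lay 172 kb below its window and 303 kb above it. Beside HOXB, the nearest 53BP1 region below the window lay 16.4 kb away, nearer than any S5p (35.6 kb) or S2p region (392 kb). Above HOXC the nearest S5p and S2p regions lay 69.5 and 69.6 kb away and the nearest 53BP1 region 122 kb. S5p members that were stronger were also wider (Spearman's rho of fold and width 0.773 over 32 regions of 1 library, against 0.6004 over 62530 in the list).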
